A study of Homo sapiens with 9 samples.

Results

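The human mitochondrial ribosomal protein genes were followed in PANC1 cells, an established line from a pancreatic ductal adenocarcinoma. The members were the rows of the count table whose gene name begins with MRPL or MRPS and a digit, that are annotated as protein-coding, and whose FPKM was 1 or more in 3 or more of the 9 libraries. FPKM counts fragments relative to transcript length and library depth. Of 160 rows with such a name, 78 were protein-coding and all 78 reached that level, 49 named MRPL and 29 named MRPS. They are 78 of the 12545 genes tested and of 60612 rows in all. The other 82 rows were not protein-coding, and 76 of them are numbered pseudogenes.

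Mitochondrial ribosomes translate the few proteins encoded by mitochondrial DNA, all of them subunits of the respiratory chain and ATP synthase. Their RNA comes from the mitochondrial genome, but every protein of the large and small subunits is encoded in the nucleus, translated in the cytosol and imported. Some of these proteins have bacterial counterparts, and others were added in the mitochondrial lineage.

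The study had 3 groups of 3 libraries, in wild-type PANC1 cells with no treatment (control), in cells given a plasmid that expresses NUSAP1 with a flag tag (overexpression), and in cells given an siRNA that targets NUSAP1 (knockdown). The NUSAP1 protein binds microtubules and helps to organise the mitotic spindle, and the series title connects it with glycolysis. The labels name neither an empty plasmid nor a control siRNA, so each comparison against control also holds the transfection. No source used here gives the time after transfection. The labels do not say whether libraries of a group came from separate cultures, so p-values measure the spread between these libraries, which may be technical.

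NUSAP1 FPKM was 30.9, 34.0 and 42.1 in control 1, 2 and 3, 13325, 13792 and 12910 after overexpression, and 12.004, 13.8 and 11.6 after knockdown. No group overlapped another, with log2 fold changes of 8.63 ± 0.15 (SE) for overexpression and -1.53 ± 0.11 for knockdown (edgeR, adjusted p = 1.31e-08 and 0.000162). Total counts ranged from 57115172 to 73386227 per library. The 6 epithelial markers fitting the line were detected in all libraries, with a sum of 483 to 690 CPM (counts scaled to 1000000 per library) carried mainly by KRT8 and KRT18. The marker sums in this paragraph use library totals alone, and all other CPM are also normalised by TMM. CDH1, which encodes E-cadherin, was at 1.86, 1.77 and 1.91 FPKM in control and 0.308, 0.314 and 0.266 after overexpression. KRT18 went the other way, from 56.0, 58.7 and 80.8 FPKM in control to 106, 95.9 and 130 after overexpression, and KRT7 was also higher. KRT8 and EPCAM were lower after overexpression, and KRT19 overlapped control, so these markers did not move together. The 4 fibroblast markers summed to 208.9 to 224 CPM in control, 97.9 to 102 after overexpression and 151 to 162 after knockdown, mostly from COL1A1 and COL3A1, with LUM at 0 in 7 libraries. The leukocyte sum was 0 to 7.67 CPM, mostly LYZ, which was at 0 in all knockdown libraries. The part of these markers in the results was not tested. Transcripts of hepatocytes, which the label does not include, summed to 74.2 and 96.6 CPM over 16 genes in control 2 and 3 and to 69.4 and 81.0 CPM in overexpression 1 and 3. In the other 5 libraries the sum was 0.462 to 1.80 CPM, with 5 to 12 of the 16 genes at 0. These 4 libraries stand apart from the rest, and the main counts are also given without them.

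Promoters of 4 members are shown because these genes had the smallest adjusted p in each direction after overexpression, and their calls in that comparison held under all 24 alternatives tried. MRPS30 and MRPL47 were higher and MRPL30 and MRPS34 were lower. The sequences are from RefSeq on GRCh38.p14, 5′ to 3′ on the gene's strand, from 250 bases before the annotated start to 50 after it, 300 bases in all. Capitals mark matches on either strand to the YY1 core AAGATGGCG, the ETS core CCGGAAG and the NRF1 core GCGCANGCG, short motifs bound by factors known for nuclear genes of mitochondrial proteins. The windows are chr5:44808697-44808996 on the plus strand for MRPS30 (1 YY1 match), chr3:179604589-179604888 on the minus strand for MRPL47 (1 ETS match), chr2:99180934-99181233 on the plus strand for MRPL30 (1 ETS and 1 NRF1 match), and chr16:1773085-1773384 on the minus strand for MRPS34 (3 ETS matches).
MRPS30: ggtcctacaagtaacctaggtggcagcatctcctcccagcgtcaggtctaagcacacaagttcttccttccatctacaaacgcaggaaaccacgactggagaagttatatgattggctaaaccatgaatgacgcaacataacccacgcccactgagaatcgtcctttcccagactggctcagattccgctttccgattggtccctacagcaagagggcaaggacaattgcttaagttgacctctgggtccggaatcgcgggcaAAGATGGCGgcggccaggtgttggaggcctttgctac
MRPL47: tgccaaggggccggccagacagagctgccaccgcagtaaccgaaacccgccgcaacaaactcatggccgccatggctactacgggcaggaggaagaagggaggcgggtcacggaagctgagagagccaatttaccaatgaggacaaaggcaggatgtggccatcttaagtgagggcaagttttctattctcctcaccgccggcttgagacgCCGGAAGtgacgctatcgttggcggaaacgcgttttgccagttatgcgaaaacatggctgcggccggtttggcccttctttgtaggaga
MRPL30: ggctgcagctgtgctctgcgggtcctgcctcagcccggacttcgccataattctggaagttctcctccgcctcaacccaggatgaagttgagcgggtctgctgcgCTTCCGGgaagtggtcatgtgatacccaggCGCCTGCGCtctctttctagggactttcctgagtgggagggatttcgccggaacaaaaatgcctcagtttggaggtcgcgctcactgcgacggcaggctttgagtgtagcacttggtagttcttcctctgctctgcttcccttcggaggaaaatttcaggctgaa
MRPS34: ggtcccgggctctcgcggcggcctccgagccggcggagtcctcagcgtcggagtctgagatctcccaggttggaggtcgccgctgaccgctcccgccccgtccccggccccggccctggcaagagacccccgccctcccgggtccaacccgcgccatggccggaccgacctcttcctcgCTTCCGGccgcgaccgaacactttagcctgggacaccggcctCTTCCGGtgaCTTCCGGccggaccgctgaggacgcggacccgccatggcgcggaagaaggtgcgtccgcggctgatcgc

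A promoter was held for 69 of the 78 members. The ETS core stood in 29 of them (42.0%), against 20.9% of the 8966 tested genes with a promoter. The YY1 core stood in 13 (18.8%), against 4.37%, and the NRF1 core in 13 (18.8%), against 16.3%. In 0 of the 69 promoters did matches to different motifs share letters. Median promoter GC content was 60.3% in the members and 66% in the tested genes. The YY1 core was in 7 of 17 promoters of members that rose after overexpression, in 1 of 12 of those that fell, and in 5 of 40 of those not called. The ETS core was in 7 of 17, 6 of 12 and 16 of 40 of the same sets, and the NRF1 core in 3 of 17, 2 of 12 and 8 of 40. These are descriptions of letters in a fixed window, with no test.

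In control cells the members spanned a 49.0-fold range of FPKM, from MRPL12 at 144 ± 14.03 (SD, n = 3) to MRPL46 at 2.95 ± 0.292. The median member had a mean control FPKM of 16.4, against 5.06 over all tested genes. MRPL genes had a median of 17.5 and MRPS genes one of 16.0, so the subunits stood at about the same level. A mean of at least 10 was reached by 55 members and one of at least 50 by 8. The lowest FPKM of any member in any library was 2.04, for MRPL42, so that no member lay just at the threshold and none fell below it. The lowest count was 447.

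MRPL12 encodes the stalk protein that helps translation factors bind the large subunit. Its FPKM was 144 ± 14.03 in control, 134 ± 10.96 after overexpression and 160 ± 8.56 after knockdown (SD, n = 3), and neither comparison with control passed the test (adjusted p = 0.854 and 0.448, edgeR). With an offset for transcript GC content, MRPL12 was called higher after overexpression (log2 fold change 0.42, edgeR, adjusted p = 0.000803). MRPL41 and MRPL51, both mitochondria-specific proteins of the large subunit, followed at 79.8 ± 13.3 and 74.9 ± 7.87 in control. These neighbours in the order lay within their spread of each other, while MRPL12 stood above both in every control library. At the other end were MRPL46, MRPL42 at 3.19 ± 0.291 and MRPS33 at 3.81 ± 0.254. The order of the 78 mean levels was much the same in the other groups (Spearman rho 0.925 with overexpression and 0.965 with knockdown, a description across genes that share libraries).

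**Figure D1:**
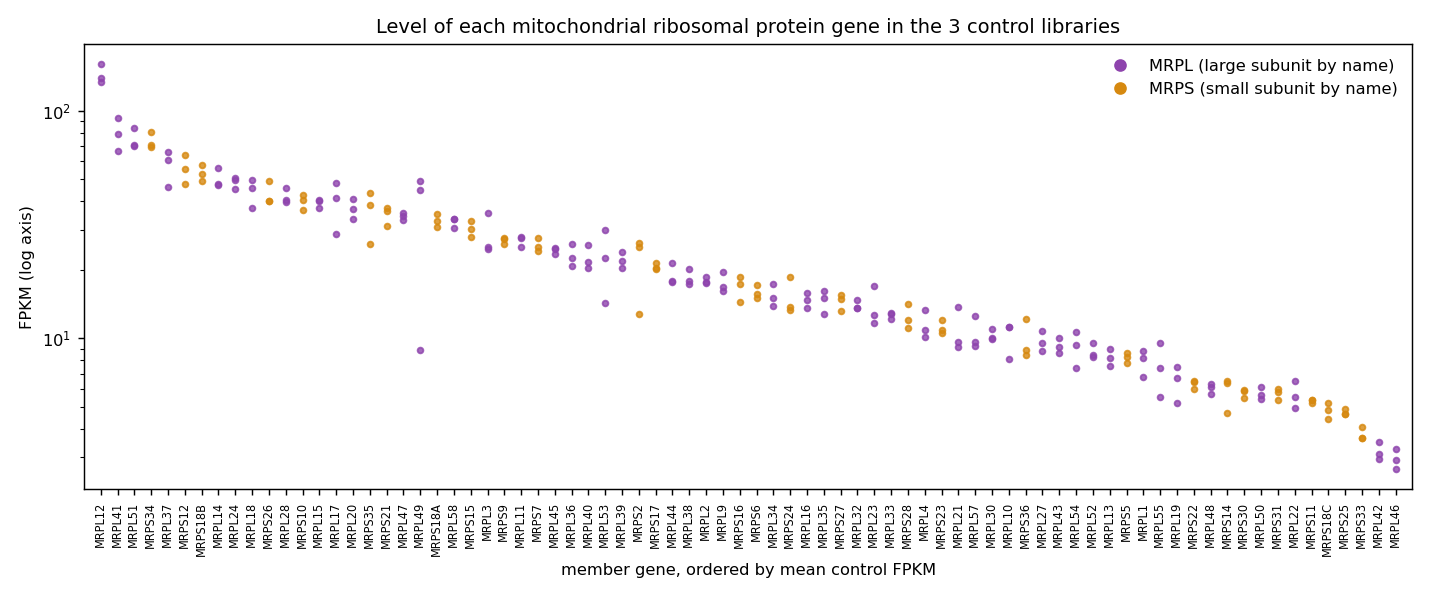
FPKM (log axis) of the 78 members in the 3 control libraries, 1 point per library, ordered by mean, with MRPL genes in purple and MRPS genes in orange. MRPL12 is at the top at a mean of 144 and MRPL46 at the bottom at 2.95, and the scattered points of MRPL49, MRPL53 and MRPS2 show the members that differed most between control libraries.

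Together the members took 0.455%, 0.450% and 0.510% of all counts in control, 0.521%, 0.445% and 0.488% after overexpression, and 0.521%, 0.497% and 0.532% after knockdown. The group means were 0.472 ± 0.034%, 0.485 ± 0.038% and 0.516 ± 0.018% (SD, n = 3), and the ranges overlapped. In bulk RNA fewer cells and less RNA per cell cannot be told apart, here or in any result that follows.

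After overexpression, 22 members rose and 12 fell, 43.6% of the 78, where 53.4% of all tested genes were called (edgeR quasi-likelihood, Benjamini-Hochberg adjusted p below 0.05 over the 12545 genes). Of all tested genes, 27.4% were higher and 26% lower. The members' median log2 fold change was 0.05, against -0.00 over all tested genes, and 4 of the 78 (5.13%) changed more than 2-fold, against 17.8%. By name, 13 of 49 MRPL genes rose and 9 fell, and 9 of 29 MRPS genes rose and 3 fell. The MRPS balance depended on the scaling, with 6 higher and 5 lower with a GC offset, and 8 and 5 with library totals and with limma on log2(FPKM + 1). Of the 78 members, 40 had groups that did not overlap in CPM, against 62.1% of all tested genes. The members moved in both directions, and a smaller share of them passed 2-fold than of all tested genes. Without the 4 libraries that held hepatocyte transcripts, which leaves 1 control and 1 overexpression library assumed to vary like the others, 5 members were higher and 3 lower, 2419 genes were called in all, and the members' median was -0.12.

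Structures of the ribosome place some members elsewhere than their names do. MRPS30 and MRPS18A sit in the large subunit, and MRPS36 belongs to the 2-oxoglutarate dehydrogenase complex and not to the ribosome. Counted that way, 15 of 51 large subunit genes rose and 9 fell, and 7 of 26 small subunit genes rose and 3 fell. Of 45 members with bacterial counterparts 12 rose and 7 fell, and of 32 mitochondria-specific members 10 rose and 5 fell. The rises were 29.4% of the large subunit genes and 26.9% of the small subunit genes. They were 26.7% of members with bacterial counterparts and 31.25% of mitochondria-specific members, all near the 27.4% of all tested genes. The falls were at most 17.6% of any of these sets, against 26% of all tested genes. MRPS36 itself was at 18.3 ± 3.64 CPM in control, 17.0 ± 2.32 after overexpression and 14.3 ± 2.55 after knockdown and passed neither test.

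**Figure D2:**
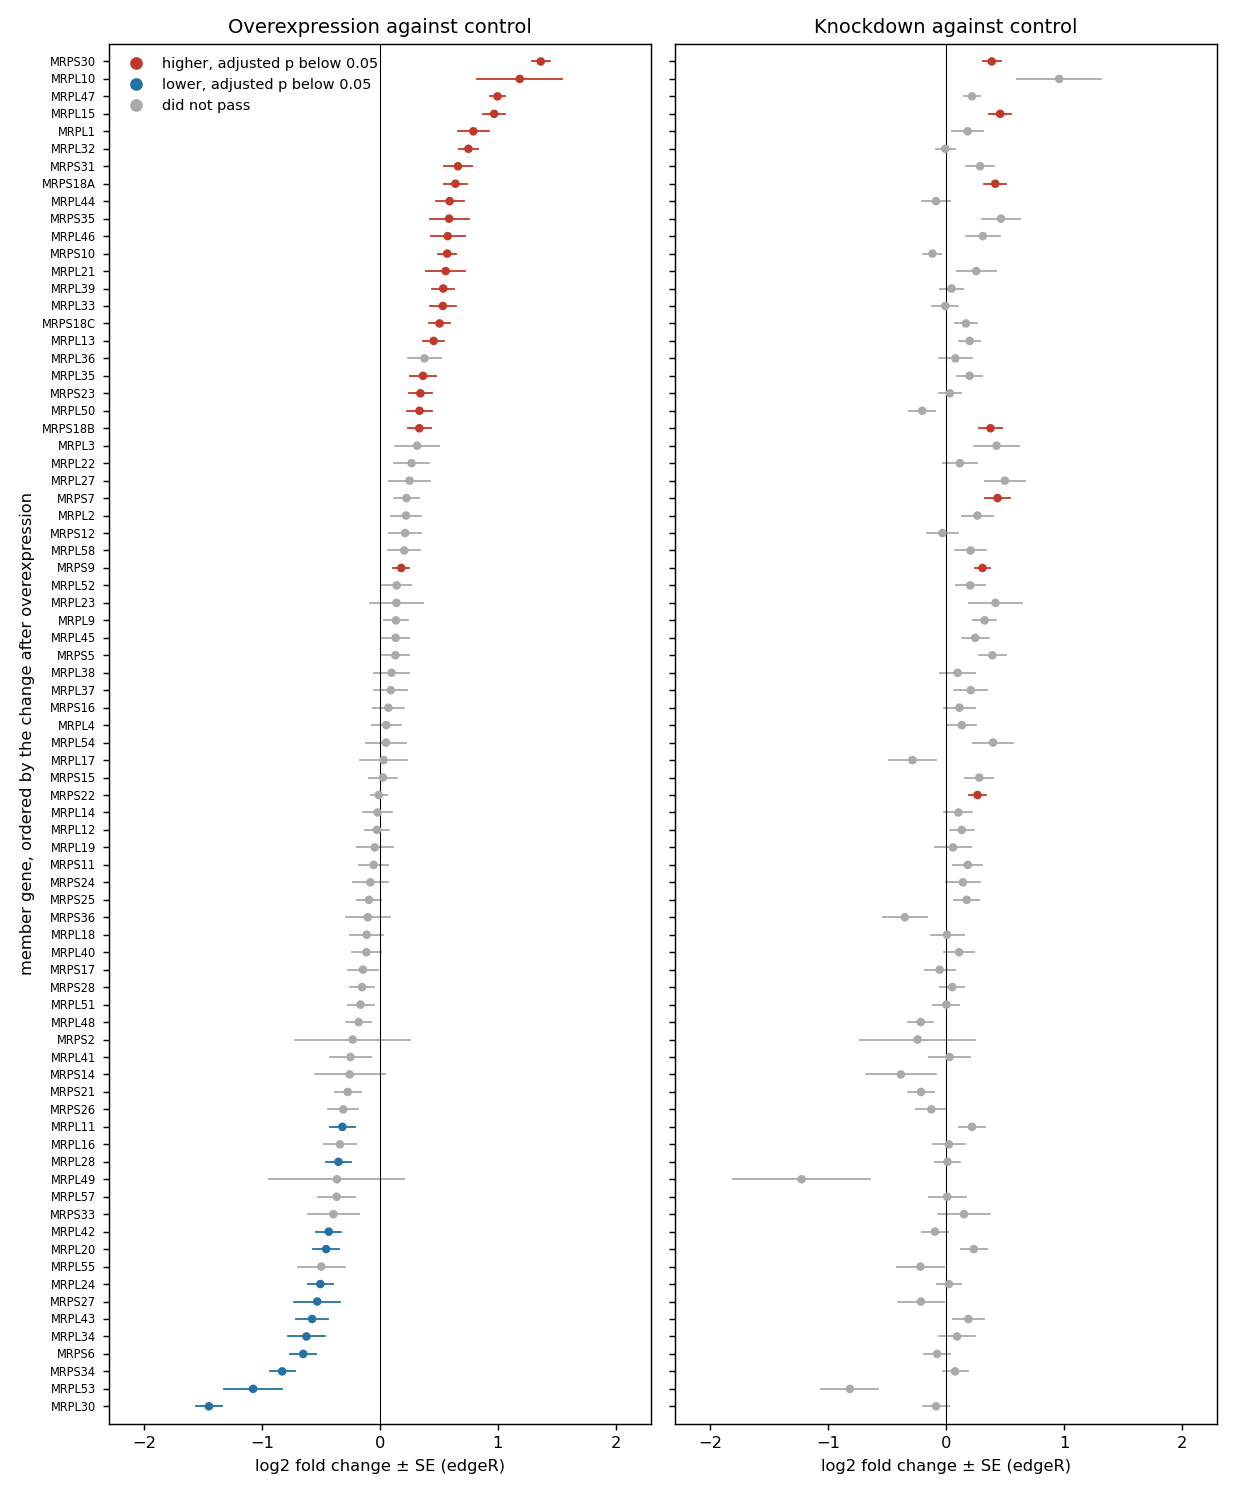
Log2 fold change (± SE, edgeR) of each of the 78 members after overexpression (left) and after knockdown (right), both against the same control libraries and ordered by the left panel. Red and blue mark the 22 members that rose and the 12 that fell after overexpression, and the 7 that rose after knockdown.

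Among large subunit genes, MRPS30 rose most. It had 43.9, 39.7 and 43.6 CPM in control 1, 2 and 3, 108, 104 and 115 after overexpression, and 52.9, 55.3 and 58.0 after knockdown. All overexpression libraries lay above all knockdown libraries, and these above all controls. The log2 fold change was 1.36 ± 0.08 (SE; 2.57-fold, adjusted p = 3.33e-06, edgeR) after overexpression. MRPL47, the counterpart of a bacterial protein at the mouth of the exit tunnel, had 54.8, 56.7 and 55.9 CPM in control, 109, 113 and 112 after overexpression, and 66.7, 60.9 and 67.2 after knockdown. Its groups did not overlap either, with a log2 fold change of 0.997 ± 0.065 (adjusted p = 6.87e-06) after overexpression. MRPL15, a core protein of the large subunit, had 80.4, 82.9 and 85.5 CPM in control, 168, 154 and 165 after overexpression, and 111, 102 and 129 after knockdown. Each overexpression library was above each of the other 6, and the log2 fold change was 0.97 ± 0.09 (adjusted p = 4.88e-05).

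MRPL32, whose maturation by the mitochondrial m-AAA protease is needed for ribosome assembly in yeast and mouse, had 60.0, 53.3 and 53.9 CPM in control and 93.2, 87.5 and 101 after overexpression. Knockdown libraries, at 54.4, 53.7 and 58.2, lay within the control range. Its log2 fold change after overexpression was 0.75 ± 0.08 (adjusted p = 0.000105, edgeR). MRPL1, the counterpart of a bacterial large subunit protein, rose by 0.79 ± 0.13 on the log2 scale, MRPL44, related to bacterial ribonuclease III, by 0.59 ± 0.12, and MRPL39 by 0.54 ± 0.10. Among these smaller rises, groups did not overlap between control and overexpression in any of the 3 genes.

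Among small subunit genes, MRPS10, of the head of the subunit, had 93.9, 104 and 101 CPM in control, 150, 156 and 139 after overexpression, and 87.0, 92.8 and 96.0 after knockdown. Overexpression stood above both other groups, with a log2 fold change of 0.57 ± 0.08 (adjusted p = 0.000322, edgeR). MRPS31 rose by 0.66 ± 0.12, but its 4 pseudogene rows held counts equal to 24.6% of its own, so its reads may be divided among them. The MRPS31 call was also lost with a GC offset. For no other member did pseudogene rows reach 10%.

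MRPS18A, MRPS18B and MRPS18C are all related to a single bacterial small subunit protein. In the human ribosome MRPS18C holds that protein's place, MRPS18B is elsewhere in the small subunit, and MRPS18A is in the large subunit. All 3 rose after overexpression, MRPS18A by 0.64 ± 0.10 (adjusted p = 0.000589, edgeR), MRPS18C by 0.51 ± 0.09 (adjusted p = 0.00172) and MRPS18B by 0.33 ± 0.10 (adjusted p = 0.0177). MRPS18A had 51.2, 46.5 and 53.4 CPM in control, 82.1, 73.4 and 79.9 after overexpression, and 70.4, 59.7 and 71.4 after knockdown. In all 3 genes every overexpression library lay above every control library, and in MRPS18A and MRPS18B every knockdown library did too. The call for MRPS18C after overexpression was lost with a GC offset, and held with any 1 library left out (edgeR, highest adjusted p 0.0125 there). That for MRPS18B was lost with no expression filter. It was also lost without control 1, without control 2, without overexpression 1 and without overexpression 3 (highest adjusted p 0.0655 with 1 library left out).

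MRPL30, the counterpart of a bacterial large subunit protein, had the largest fall. It had 57.5, 55.6 and 62.2 CPM in control 1, 2 and 3, 20.8, 23.6 and 19.8 after overexpression, and 54.0, 49.0 and 62.2 after knockdown. Overexpression lay below all other libraries, while knockdown and control overlapped. The log2 fold change was -1.45 ± 0.11 (SE; 2.73-fold lower, adjusted p = 1.55e-05, edgeR). A row of the same strand named AC079447 overlaps MRPL30 and stood at 0.118 ± 0.0549 CPM in control and 4.24 ± 1.06 after overexpression (SD, n = 3). The sum of both rows was 55.8 to 62.3 CPM in control and 24.7 to 26.9 after overexpression, so the groups stayed apart when these rows were added. A further row of the same strand, AC092587, was not among the tested genes and is not in the sum. Its FPKM was 0.0001, 2.58 and 0.501 in control and 0.133, 0.0001 and 1.85 after overexpression. MITD1 begins 118 bases from MRPL30 on the other strand and moved the other way, with a log2 fold change of 1.14 ± 0.10 (adjusted p = 3.77e-05).

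MRPS34, a mitochondria-specific protein of the small subunit, had 91.7, 90.1 and 105 CPM in control, 61.4, 49.7 and 50.1 after overexpression, and 97.5, 96.4 and 108 after knockdown. Every overexpression library was below every other library, with a log2 fold change of -0.83 ± 0.11 (adjusted p = 0.000254, edgeR). MRPS6, of the platform of the small subunit, had 81.0, 75.1 and 87.3 CPM in control, 53.9, 47.6 and 53.5 after overexpression and 74.9, 68.3 and 87.6 after knockdown. It fell by 0.65 on the log2 scale (SE 0.11, adjusted p = 0.00111), with no overlap between overexpression and the rest. SLC5A3, which lies within the MRPS6 locus on the same strand, was at 56.2 ± 11.4 CPM in control and 28.5 ± 10.4 after overexpression (SD, n = 3). The sum of both was 131 to 141 CPM in control and 74.3 to 87.8 after overexpression.

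MRPL24, at the exit tunnel like MRPL47, had 104, 89.4 and 99.9 CPM in control, 77.1, 62.0 and 67.8 after overexpression, and 97.2, 92.9 and 108 after knockdown. Overexpression was again below all other libraries, with a log2 fold change of -0.51 ± 0.10 (adjusted p = 0.00361, edgeR). MRPL22, MRPL23 and MRPL45, also at the exit tunnel, did not pass the test, with log2 fold changes of 0.27, 0.14 and 0.13. The exit tunnel genes picked here thus included a rise, a fall and 3 with no call, and they are not a full list of that region. MRPL20, MRPL34 and MRPL43 also fell, by 0.46, 0.62 and 0.58 on the log2 scale.

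**Figure D3:**
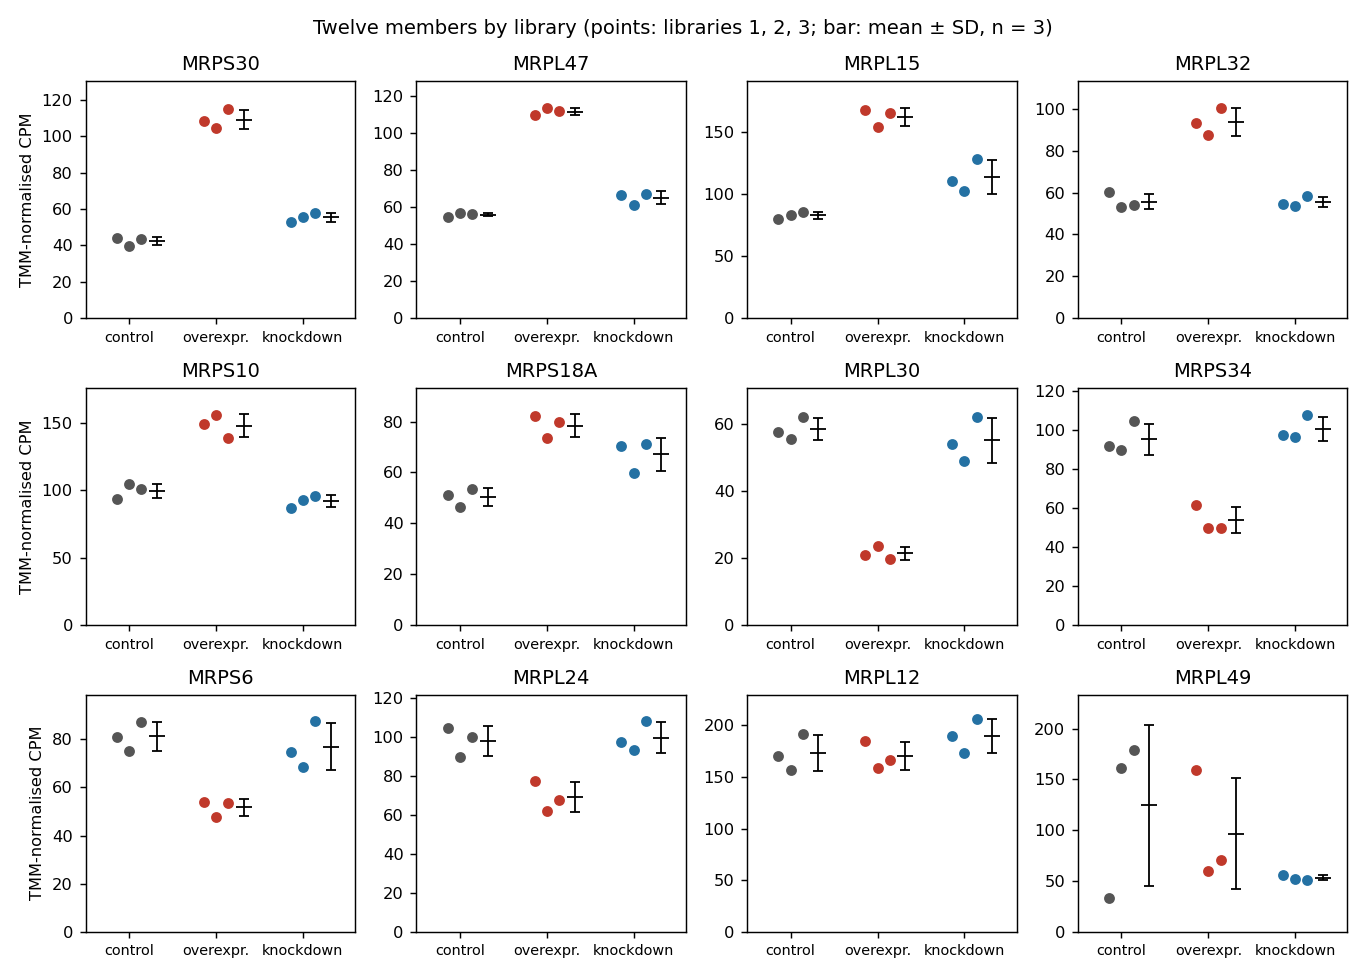
TMM-normalised CPM of 12 members in each library, points for libraries 1, 2 and 3 of a group and bars for the mean ± SD (n = 3), each axis starting at 0. MRPS30, MRPL47, MRPL15, MRPL32, MRPS10 and MRPS18A stand higher after overexpression than in control, MRPL30, MRPS34, MRPS6 and MRPL24 lower, MRPL12 overlaps in all groups and MRPL49 is scattered within control and overexpression.

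MRPL53 was also called lower, by 1.08 on the log2 scale (SE 0.24, adjusted p = 0.00568, edgeR), but it overlaps CCDC142 on the same strand. MRPL53 had 11.96, 24.0 and 18.4 CPM in control and 9.79, 8.71 and 7.30 after overexpression. The sum of MRPL53 and CCDC142 was 33.5 to 41.9 CPM in control, 36.3 to 43.9 after overexpression and 39.7 to 44.5 after knockdown, so the groups overlapped once the rows were added. No source used here says how reads were divided between overlapping rows. Of the 78 members 27 overlap another tested gene, 20 on the opposite strand and 9 on the same one.

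Some members varied more within a group than between groups. MRPL49, a mitochondria-specific large subunit protein, had 33.2, 161 and 178 CPM in control, 159, 59.8 and 70.6 after overexpression, and 56.0, 51.9 and 51.3 after knockdown. Control 1 was low, and control 2, control 3 and overexpression 1 were high. These 3 are among the 4 libraries with hepatocyte transcripts, and overexpression 3, the remaining one, was not high, and the part of those transcripts in this was not tested. Neither comparison passed (adjusted p = 0.626 and 0.202, edgeR). MRPL10, the protein to which MRPL12 binds at the stalk base, had 37.6, 36.5 and 26.7 CPM in control, 130, 51.2 and 48.2 after overexpression, and 63.2, 61.5 and 71.1 after knockdown. Overexpression 1 stood far above the other overexpression libraries, yet all lay above control, with a log2 fold change of 1.19 ± 0.36 (adjusted p = 0.022) that did not pass without control 3 (adjusted p = 0.0793). MRPS2, with 73.3, 67.5 and 18.5 CPM in knockdown, was the other member with a wide spread, and with MRPL53 these were the 4 members with a ratio above 2 between libraries of a group.

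Knockdown moved few members. Of the 78, 7 were higher and 0 lower, 8.97%, where 14.5% of all tested genes were called (7.02% higher and 7.43% lower, edgeR). At an unadjusted p below 0.05, 1 member was lower, and DESeq2 called 12 higher and 1 lower. The median log2 fold change was 0.11, against 0.02 over all tested genes, and none of the 7 reached 2-fold. The 7 were 1 of 49 MRPL genes and 6 of 29 MRPS genes, and by structure 3 of 51 large and 4 of 26 small subunit genes. Of the 78 members, 19 had groups that did not overlap, against 35.1% of all tested genes. Without control 2 and 3, and the overexpression libraries with hepatocyte transcripts, 0 members and 6 genes in all were called. The fold changes there were about as large, with a median of 0.11 over the members and 0.48 for MRPL15, in a fit with 1 control library left.

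MRPL15 and MRPS30, the first 2 of the 7, both rose less than after overexpression, by 0.46 ± 0.09 (adjusted p = 0.0138) and 0.39 ± 0.07 (adjusted p = 0.012, edgeR), with the values by library given above. MRPS9, a small subunit protein with a bacterial counterpart, had 58.0, 58.2 and 60.1 CPM in control, 67.3, 66.3 and 66.3 after overexpression and 68.0, 73.2 and 77.0 after knockdown. Control was below both other groups without overlap, and the log2 fold change after knockdown was 0.31 ± 0.07 (adjusted p = 0.0191). MRPS7, of the head of the small subunit, had 102, 94.3 and 109 CPM in control and 133, 122 and 157 after knockdown, a rise of 0.44 ± 0.11 (adjusted p = 0.029). MRPS18A rose by 0.42 ± 0.09 (adjusted p = 0.023), MRPS18B by 0.38 ± 0.10 (adjusted p = 0.0352) and MRPS22, in which inherited mutations cause mitochondrial disease, by 0.27 ± 0.07 (adjusted p = 0.0376).

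These rises were small and near the threshold. Deviations of same-numbered knockdown and control libraries correlated at 0.147, 0.129 and 0.107. Different-numbered libraries of knockdown and control correlated at -0.083 to -0.033, below each same-numbered value. Between overexpression and knockdown, libraries of different numbers reached 0.211. Values of this size thus also occur without a shared number, and a pairing is not established. All 7 passed with the number as a block in the fit of all libraries. In a fit of these 2 groups alone, MRPS9, MRPS22, MRPS18B and MRPS7 did not pass without the block (edgeR, adjusted p = 0.0557, 0.0742, 0.0657 and 0.0578). With the block in that fit MRPS18B and MRPS7 passed (adjusted p = 0.0319 and 0.0331), and MRPS30, MRPS9 and MRPS22 did not (adjusted p = 0.0541, 0.0585 and 0.079). Leaving out 1 library at a time left 1 to 9 members higher and 0 to 2 lower, with 1 higher without control 1, 2 without control 2, 2 without control 3, 3 without knockdown 1 and 2 without knockdown 3. MRPL53 was 1 of the members lower without control 1 (log2 fold change -1.07, adjusted p = 0.0159), against -0.82 and 0.0572 with all libraries.

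Both comparisons use the same control libraries, so values are set side by side and no overlap is tested. MRPL15, MRPS30, MRPS18A, MRPS18B and MRPS9 were higher in both, and no member was called in opposite directions. The overexpression call of MRPS9 (0.18 ± 0.07, adjusted p = 0.0481, edgeR) was lost under 18 of 24 alternatives, with each library left out in turn among them (highest adjusted p 0.152 there). Over all tested genes 8.44% were called in the same direction in both and 1.88% in opposite directions. MRPS22 and MRPS7 were called after knockdown but not after overexpression, and 42 members were called in none of the 3 comparisons.

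The direct comparison of overexpression with knockdown called 14 members higher and 11 lower in overexpression, 32.1%, against 50% of all tested genes (25.5% higher and 24.5% lower, edgeR). Groups did not overlap in 35 of the 78 members, against 58.3% of all tested genes, and the members' median difference was -0.11 on the log2 scale. MRPS30 differed by 0.98 ± 0.07 (adjusted p = 1.91e-05) and MRPL15 by 0.51 ± 0.09 (adjusted p = 0.00181), both higher in overexpression, whereas MRPS18A, MRPS18B and MRPS9 did not pass (differences of 0.22 ± 0.09, -0.04 ± 0.10 and -0.13 ± 0.07). MRPS22 was higher in knockdown, with a difference of -0.28 ± 0.07 (adjusted p = 0.0102). Of the 12 members that fell after overexpression, 10 were also lower than in knockdown, the exceptions being MRPL53 and MRPS27. Both comparisons use the same overexpression libraries, so the 10 are a description and not separate support for the falls. Without the 4 libraries with hepatocyte transcripts, 4 members were higher and 11 lower and the median was -0.26. The median was -0.18 with library totals and -0.05 with a GC offset.

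The other protein genes of the ribosome carry other names. DAP3, a GTP-binding small subunit protein, CHCHD1 and the large subunit protein GADD45GIP1 passed in neither comparison with control. PTCD3, which sits where messenger RNA enters the small subunit, had 92.5, 94.2 and 91.8 CPM in control and 126, 148 and 124 after overexpression, and rose by 0.52 ± 0.09 (adjusted p = 0.00173, edgeR). AURKAIP1 fell by 0.41 on the log2 scale (SE 0.12, adjusted p = 0.0194).

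Genes that act with the ribosome were counted in lists. Of 12 tested mitochondrial translation factors 6 rose after overexpression and 0 fell, with a median log2 fold change of 0.40, where 27.4% of all tested genes rose and 26% fell. With a GC offset 5 rose and 1 fell, with a median of 0.21, and with log2(FPKM + 1) 4 rose and 1 fell, with a median of 0.29. MTRF1L, a release factor, had 28.8, 25.4 and 26.9 CPM in control, 74.6, 77.2 and 79.6 after overexpression and 34.3, 34.6 and 31.9 after knockdown. Its groups did not overlap, and it rose by 1.51 ± 0.08 after overexpression (adjusted p = 2.15e-06, edgeR) and by 0.31 ± 0.08 after knockdown (adjusted p = 0.0277). MRRF, the recycling factor, rose by 1.39 ± 0.23 after overexpression. Of 24 ribosome assembly genes 7 rose and 2 fell, among them FASTKD2, an RNA-binding protein of mitochondrial RNA granules, at 1.09 ± 0.12, and MPV17L2 at -0.61 ± 0.10. Of 21 genes for aminoacyl-tRNA synthesis 5 rose and 3 fell, with a median of 0.04. The aminoacyl-tRNA median changed sign with the scaling (-0.01 with library totals, -0.03 with log2(FPKM + 1), -0.10 with a GC offset), and so did the members' median (-0.00 with library totals, -0.02 with log2(FPKM + 1)). Without the 4 libraries with hepatocyte transcripts 2 translation factors, 2 assembly genes and 1 aminoacyl-tRNA gene were called, all higher, and the median was -0.00 for the assembly genes and -0.03 for the aminoacyl-tRNA genes.

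Of 14 genes that maintain mitochondrial DNA and RNA, 7 rose after overexpression and 0 fell, where 27.4% of all tested genes rose and 26% fell. PNPT1, an RNA-degrading enzyme, had 76.6, 83.6 and 72.0 CPM in control and 201, 254 and 223 after overexpression, a log2 fold change of 1.55 ± 0.12 (adjusted p = 1.91e-05, edgeR). After knockdown it stood at 78.9, 84.1 and 65.4 CPM, which overlaps control. TFAM, which packages mitochondrial DNA, rose by 0.61 ± 0.11 after overexpression. Without the 4 libraries with hepatocyte transcripts 2 of the 14 genes were called, both higher. Of 7 regulators of nuclear genes for mitochondria 2 rose and 0 fell, and this 28.6% is near the 27.4% of all tested genes that rose. They were PPRC1 (1.35 ± 0.07) and GABPB1 (1.34 ± 0.13), a partner of the ETS factor GABPA. GABPA, NRF1 and YY1 themselves did not pass (0.19 ± 0.26, 0.25 ± 0.14 and -0.11 ± 0.24).

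The mitochondrially encoded genes went the other way. Of 15 tested, 0 rose and 13 fell after overexpression, with a median log2 fold change of -0.61, and 4 fell after knockdown, with a median of -0.44. Of all tested genes 26% fell after overexpression and 7.43% after knockdown. The ribosomal RNA MT-RNR2 fell in both, by 0.32 after overexpression (SE 0.10, adjusted p = 0.0314, edgeR) and by 0.53 after knockdown (SE 0.10, adjusted p = 0.0127). MT-RNR1 fell after knockdown by 0.54 and did not pass after overexpression (0.17 ± 0.10). Without the 4 libraries with hepatocyte transcripts 9 of the 15 were lower after overexpression and 0 after knockdown. Mitochondrial RNAs carry short tails, the libraries were made from poly(A)-selected RNA, and the part of selection in these values was not tested.

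Of 81 nuclear-encoded respiratory chain genes 2 rose and 40 fell after overexpression, with a median of -0.35. Of 73 cytosolic ribosomal protein genes 1 rose and 17 fell, with a median of -0.22. The falls were 49.4% of the respiratory chain list and 23.3% of the cytosolic list, against 26% of all tested genes. After knockdown 3 rose and 3 fell in the first list, and 2 rose and 1 fell in the second, where 7.02% of all tested genes rose and 7.43% fell. The signs of these medians after overexpression held under each scaling tried, but the counts moved. With limma on TPM 25 respiratory chain genes and 7 cytosolic ribosomal protein genes were lower, and with log2(FPKM + 1) 49 and 29. Without the 4 libraries 14 respiratory chain genes and 1 cytosolic ribosomal protein gene were lower.

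**Figure D4:**
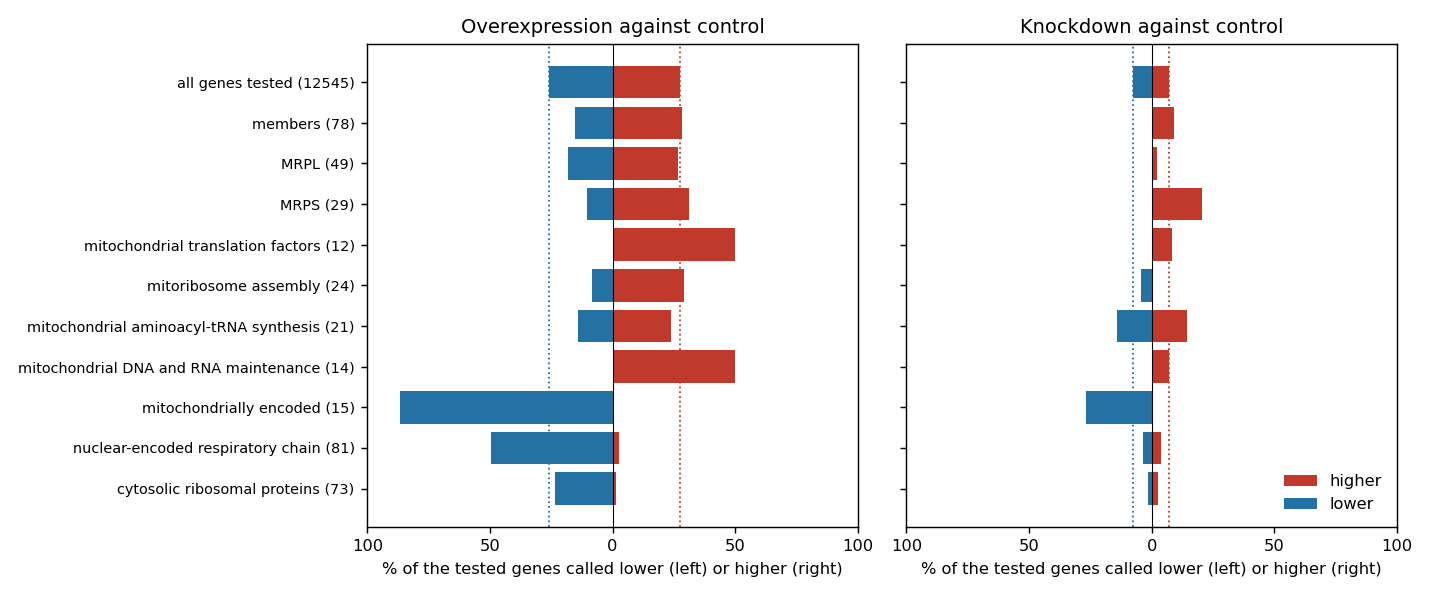
Percent of tested genes called higher (right of 0, red) and lower (left of 0, blue) in each list after overexpression and after knockdown, with the number tested in parentheses and dotted lines at the percent of all tested genes called in each direction. After overexpression, 22 members were higher and 12 lower, 6 translation factors and 7 maintenance genes were higher with 0 lower, and 13 mitochondrially encoded genes were lower with 0 higher.

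Transcript GC content moved with the changes after overexpression. Members that rose had a median GC content of 43.4% and members that fell one of 53.2%, with 51.1% for those not called. Over all genes the medians were 46.8%, 54.7% and 47.8%. Spearman's rho between log2 fold change and GC content was -0.31 over the 78 members and -0.26 over 12493 tested genes, a description across genes that share libraries. After knockdown it was 0.07 and -0.02. MRPL30 fell with 43.2% GC and MRPS18A rose with 57.3% GC, against that trend. With an offset for GC, 21 members rose and 15 fell, but not all were the same members. MRPL13, MRPL33, MRPL35, MRPL50, MRPS9, MRPS18C, MRPS23, MRPS31 and MRPS35 were no longer called higher, nor MRPL28 lower. MRPL12 (64.6% GC) went from -0.03 to 0.42 on the log2 scale and was then called higher (edgeR, adjusted p = 0.000803). The part of GC content in these results was otherwise not tested.

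**Figure D5:**
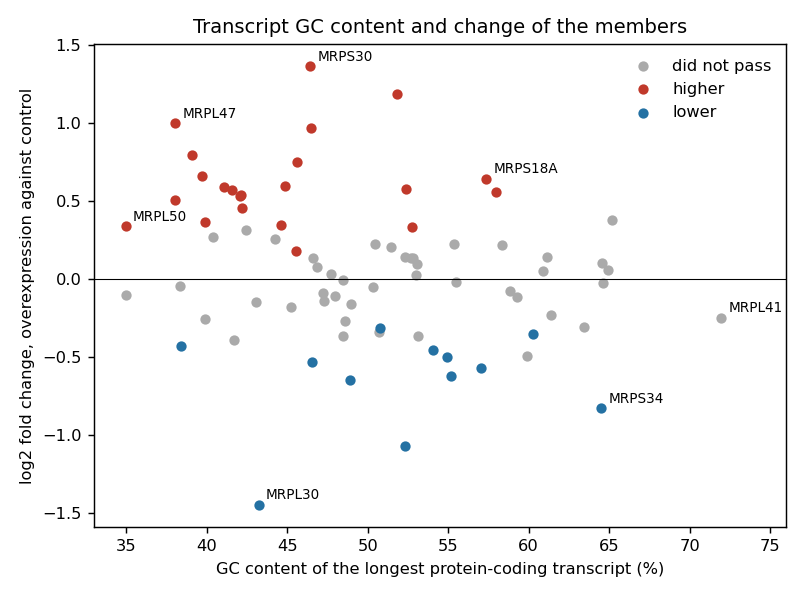
Log2 fold change after overexpression against the GC content (%) of the longest protein-coding transcript for the 78 members, red for those that rose, blue for those that fell and grey for the rest. Red points have a median of 43.4% GC, with MRPL21 at 57.9% and MRPS18A at 57.3% the farthest right, and MRPL30 is a blue point at 43.2%.

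Many members start near the start of a gene on the other strand. Within 1000 bases, 26 members had a tested neighbour that starts on the opposite strand, in 25 distinct pairs since MRPS11 and MRPL46 are each other's neighbour. The starts lay 24 to 990 bases apart, and whether the pairs share a promoter was not tested. TWNK, EME2, NCAPD2, PTCD2, C9orf116, GGA3, SARS2 and TMEM63B overlap their members. TWNK, EME2 and PTCD2 are neighbours of the falling members MRPL43, MRPS34 and MRPS27. After overexpression, 5 of the 8 neighbours of rising members rose and 0 fell, where 27.4% of all tested genes rose and 26% fell. Of the 4 neighbours of falling members, 1 rose (MITD1, beside MRPL30) and 0 fell. Of the 14 neighbours of members with no call, 4 rose and 4 fell. NDUFB5, a complex I gene that starts 50 bases from MRPL47, was at 0.01 ± 0.18 on the log2 scale where MRPL47 was at 0.997 ± 0.065.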

How the data were processed

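RNA of 9 PANC1 libraries was poly(A)-selected and prepared with dUTP, per the labels' protocols. HISAT2 2.0.4, StringTie 1.3.4d and cutadapt 1.9 were used, per the submitters' processing notes; no source used here gives the build or the strand setting. The authors deposited raw counts and FPKM per gene, with an FPKM of 0 written as 0.0001 in the deposited FPKM columns. Genes whose FPKM was 1 or more in 3 or more libraries were tested on the counts with edgeR 4.0.16 (R 4.3.3, quasi-likelihood, TMM), in 1 model of 3 groups with 6 residual degrees of freedom. Benjamini-Hochberg adjustment ran over all 12545 genes. The SE is the log2 fold change divided by the square root of F. CPM are counts scaled to 1000000 per library with TMM factors, apart from the marker sums, which use library totals alone. The test was checked on simulated counts with far fewer changed genes than were called after overexpression and with no GC trend. The check therefore does not cover changes as wide as these. Alternatives used DESeq2 1.42.0, limma 3.58.1 on log2(FPKM + 1), log2(FPKM + 0.1) and log2(TPM + 1), other scalings, filters and samples, and a replicate block. GC content is from GENCODE 29 transcripts, matched by ID for all 78 members.

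Members and lists were chosen with earlier results of these data known. Genes named are the 5 with the smallest adjusted p in each direction and comparison, the 3 highest and 3 lowest in control FPKM, those called in both comparisons with control, and named roles; others were picked with their values in view. Deviations of same-numbered knockdown and control libraries correlated at 0.147, 0.129 and 0.107, and the numbers were tried as a pairing of these groups. For same-numbered overexpression and control libraries the correlations were -0.09, -0.01 and -0.01. Libraries of different numbers lay at -0.083 to -0.033 for knockdown and control. They reached 0.137 for overexpression and control and 0.211 for overexpression and knockdown, so the pairing is not established.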

Additional observations from a re-analysis of the deposited data

How the results depend on the processing

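Against 22 members higher and 12 lower after overexpression (6702 genes in all), leaving out 1 library at a time gave 18 to 22 and 9 to 16 (5851 to 6792 genes), an FPKM minimum of 5 gave 4229 genes, and leaving out the 4 libraries with hepatocyte transcripts gave 5 and 3 (2419 genes). After knockdown (7 higher, 0 lower, 1813 genes), the members higher were 12 with DESeq2, 16 with limma on TPM, 2 with no filter, 4 with only these 2 groups, 11 with the replicate block and a GC offset, 0 without the hepatocyte libraries and 1 to 9 without 1 library. The members lower were 1 with DESeq2, with an FPKM minimum of 5, with a GC offset and with the block and GC offset, and 0 to 2 without 1 library. All genes called were 2767 with DESeq2, 1058 with no filter, 6 without the hepatocyte libraries and 962 to 1702 without 1 library. Overexpression against knockdown (14 higher, 11 lower, 6270 genes) gave 4 higher without the hepatocyte libraries, and lower 17 with a GC offset, 22 with library totals, 23 with limma on either FPKM pseudocount and 18 with the block and GC offset. It gave 4069 genes with an FPKM minimum of 5, 3539 without the hepatocyte libraries, and 11 to 14 higher, 9 to 13 lower and 5354 to 6158 genes without 1 library. The replicate block alone gave 25 higher and 14 lower after overexpression, 9 and 0 after knockdown (5 and 0 with only these 2 groups) and 17 and 15 for overexpression against knockdown. MRPL12 reversed after overexpression to 0.42 with the GC offset and 0.42 with the block and GC offset, and against knockdown to 0.25 and 0.25. MRPL41 after overexpression reversed to 0.19 with the block and GC offset. With TPM the median of all genes was 0.14 in both comparisons with control, against -0.00 after overexpression and 0.02 after knockdown. Apart from fewer samples or genes, the cause of these shifts was not tested. The GC offset, its fit with the block and the block in 2 groups were chosen after seeing the data. With 3 libraries a group, small changes near the threshold are the least certain.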
